A study of Homo sapiens with 3 samples.

Results

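CCN1, CCN2, AXL, CRIM1, AMOTL2, AJUBA, ASAP1, ANKRD1, RBMS3 and GADD45A are target genes of the transcriptional co-activator YAP and its DNA-binding partners, the TEAD factors. BRG1 peaks around these 10 genes, of 19970 protein-coding genes on chromosomes 1 to 22 and X, were examined in wild-type 12Z cells. The 12Z line was derived from human endometriosis and is epithelial. BRG1 had been mapped by chromatin immunoprecipitation and sequencing (ChIP-seq) in 2 ChIP libraries, called replicates 1 and 2, with 1 input library of chromatin that was not precipitated. All 3 libraries came from wild-type cells fixed in 1% formaldehyde, so no second condition exists, and the labels do not say whether the replicates were separate cultures. A peak was given to a gene when its midpoint lay in the gene body, or within 100 kb of it with that gene as the nearest protein-coding gene. These positions are called the gene's domain. The genes were chosen with earlier results of the same lists known, so the number that carry a peak is a description here and no test of it is given.

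BRG1, encoded by SMARCA4, is an ATPase of the SWI/SNF complexes, which use ATP to move or evict nucleosomes. YAP and its paralogue TAZ have no DNA-binding domain and reach DNA mainly through TEAD factors, often at distal enhancers that also bind AP-1. When the Hippo kinases are active, YAP is phosphorylated and kept out of the nucleus. In epithelial cells the pathway is known for linking cell contacts and tension to growth, and several of its targets, among them AMOTL2 and AJUBA, act back on the pathway itself.

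A promoter peak in every list lay at CCN2, which encodes a secreted matricellular growth factor that binds integrins. Below are the 250 bases before the annotated start of CCN2, of ANKRD1, which had a promoter peak in replicate 1 alone, and of the second annotated start of AXL, which lay just beside a shared peak. Capitals mark matches to the TEAD letters GGAATG, or CATTCC on the other strand, and to the AP-1 letters TGANTCA, which were searched on both strands and did not overlap each other here. The sequences are from RefSeq, assembly GRCh38.p14, and run 5′ to 3′ along the gene's own strand.
CCN2, chr6:131951373-131951622, minus strand: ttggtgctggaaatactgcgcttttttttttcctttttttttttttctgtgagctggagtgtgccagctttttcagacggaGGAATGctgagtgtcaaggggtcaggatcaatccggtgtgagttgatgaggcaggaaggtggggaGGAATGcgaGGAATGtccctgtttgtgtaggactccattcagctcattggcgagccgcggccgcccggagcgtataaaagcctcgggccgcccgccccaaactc
ANKRD1, chr10:90921088-90921337, minus strand: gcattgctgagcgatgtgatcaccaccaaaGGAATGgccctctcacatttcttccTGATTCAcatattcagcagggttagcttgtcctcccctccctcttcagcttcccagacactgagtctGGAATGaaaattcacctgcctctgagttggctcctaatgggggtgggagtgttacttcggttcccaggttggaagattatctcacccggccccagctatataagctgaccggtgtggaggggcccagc
AXL second start, chr19:41226505-41226754, plus strand: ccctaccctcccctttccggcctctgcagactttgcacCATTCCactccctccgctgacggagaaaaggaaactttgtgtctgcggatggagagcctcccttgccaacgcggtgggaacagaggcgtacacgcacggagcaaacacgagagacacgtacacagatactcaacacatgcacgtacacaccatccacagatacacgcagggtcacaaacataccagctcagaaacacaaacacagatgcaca

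The CCN2 sequence holds 3 TEAD matches, which begin 169, 104 and 95 bases upstream of the start, and no AP-1 match. All 3 lay under the replicate 1 peak (131951449 to 131951781 on chromosome 6), and all 3 also lay under the narrower replicate 2 peak (131951455 to 131951557). Windows of 300 bases, 250 before and 50 after each annotated start, held at least 1 TEAD match in 12.2% of 22131 windows of protein-coding genes. At least 2 matches were found in 1.06% of these windows, at least 3 in 23 of them, or 0.104%, and an AP-1 match in 6.15%. ANKRD1, which encodes an ankyrin repeat protein of the nucleus and sarcomere, had 2 TEAD matches, at 220 and 128 bases upstream, and 1 AP-1 match between them. That AP-1 match reads TGATTCA, where the N of the AP-1 letters stands for any base. The replicate 1 peak of ANKRD1 began at 90921302 on chromosome 10 and covered 36 bases of the window and the first of the 2 TEAD matches. Replicate 2 had no peak there, and its nearest was 9428 bases from the window. The AXL sequence holds 1 TEAD match, 212 bases upstream of the second start, and the shared peak ended 14 bases short of the window. Each of the second windows of AMOTL2 and AJUBA held 1 TEAD match with no peak over it, while the first windows of AXL, AMOTL2 and AJUBA and the window of RBMS3 held none. A match is a description of the letters and does not show that a factor is bound.

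**Figure D1:**
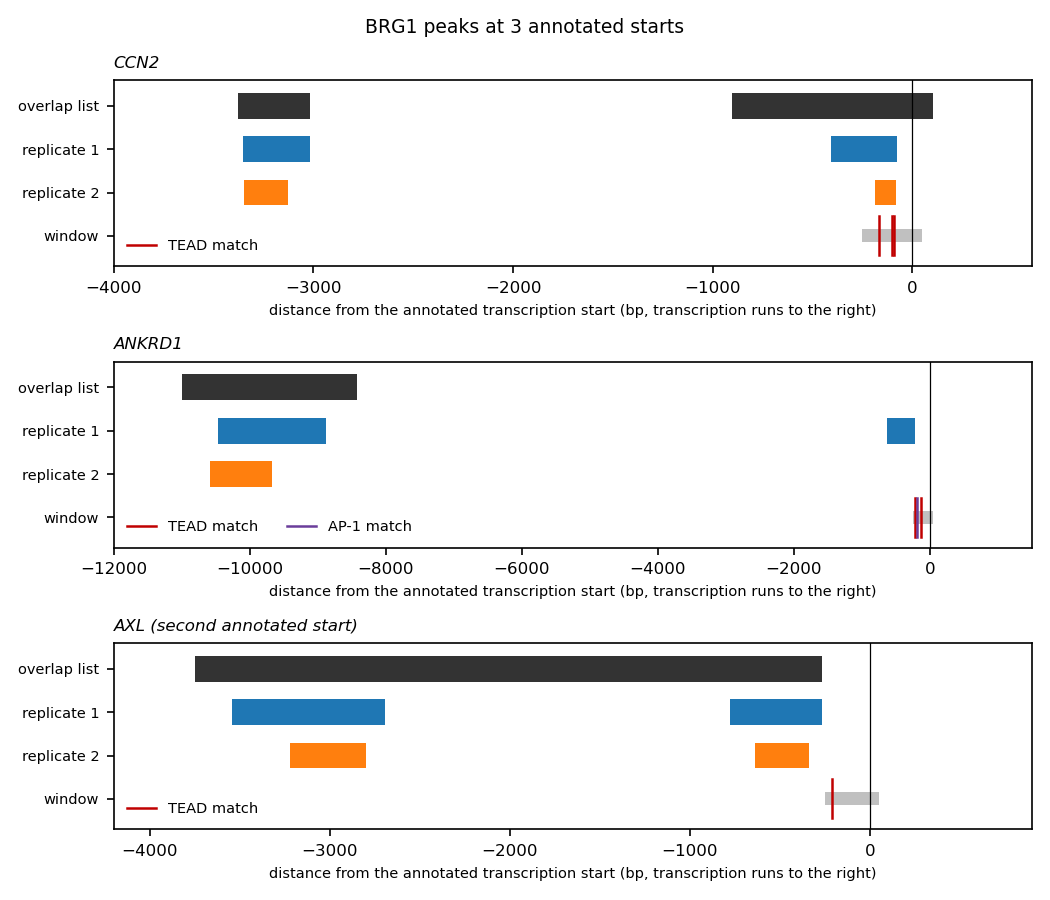
BRG1 peaks beside the annotated starts of CCN2, ANKRD1 and the second start of AXL, with the distance from the start in bp on each horizontal axis. Bars are peaks of the overlap list and of replicates 1 and 2, the grey bar is the 300-base window, and vertical marks are TEAD or AP-1 letter matches. At CCN2 a peak of every list covers all 3 TEAD matches, whereas at ANKRD1 only the replicate 1 list has a peak near the start.

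The replicate lists held 17323 and 10082 peaks on these chromosomes, and the authors' overlap list held 6293, called shared peaks here. Each peak carries a fold over background and a −log10 q from the authors' peak caller, and these values are compared only within their own list. The lists give no read counts, and the depth of the libraries is unknown. Peaks do not measure expression, so the cell type label could not be checked by marker levels. As to binding, 3 of 6 epithelial marker genes, 4 of 5 stromal or mesenchymal, 1 of 3 endothelial and 0 of 3 immune marker genes carried a shared peak, against 9.67% of all protein-coding genes. With 3 to 6 genes a list, these counts were not tested.

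Of the 10 target genes, 9 had at least 1 shared peak in their domain, and AJUBA had none. Among all protein-coding genes the share was 9.67%. In the replicate 1 list all 10 target genes had a peak, against 20.2% of all genes, and in the replicate 2 list 9 had a peak, against 11.5%. The domains of the 10 genes held 28 shared peaks, 69 replicate 1 peaks and 41 replicate 2 peaks, with a median of 2 shared peaks per target gene and of 0 over all genes. At least 2 shared peaks were present at 7 of the 10 genes, against 3.27% of all genes, and at least 3 at 4 of them (CRIM1, AMOTL2, ASAP1 and RBMS3), against 1.4%. ASAP1 and RBMS3, which have long gene bodies, together held 14 of the 28 shared peaks. Domain length differs widely between genes, and longer domains held peaks more often. Genes were split into 5 equal groups by domain length. In the group with the longest domains, 3 of 3 target genes had a shared peak (CRIM1, ASAP1 and RBMS3), against 24.7% of all genes in that group. In the next group all 4 target genes had a shared peak (CCN2, ANKRD1, AMOTL2 and GADD45A), against 12.6%. AXL lay in the middle group, where 7.16% of genes had a shared peak, and CCN1 and AJUBA lay in the second shortest, with 2.93%.

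**Figure D2:**
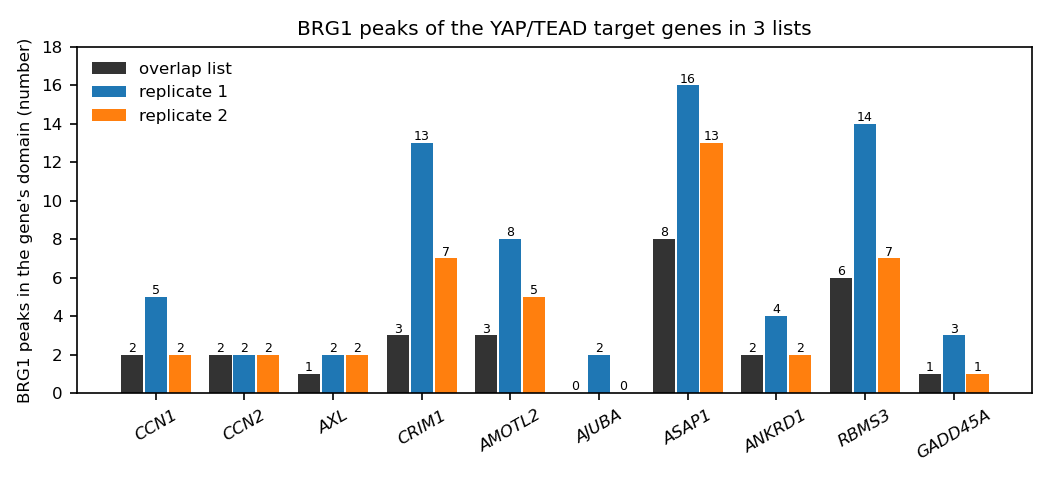
Number of BRG1 peaks in the domain of each of the 10 target genes, on the vertical axis, in the overlap list and in the lists of replicates 1 and 2. Replicate 1 has the most peaks at 8 of the genes, CCN2 and AXL have 2 in each replicate, and AJUBA has peaks in replicate 1 alone.

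**Figure D3:**
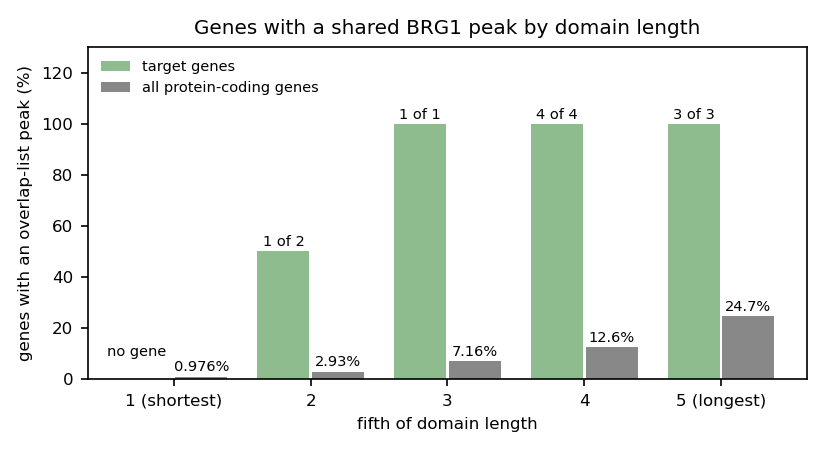
Percentage of genes with a shared peak in their domain, in 5 equal groups of domain length, for the target genes and for all protein-coding genes. The target gene bars rest on 1 to 4 genes each, as written above them, while all-gene shares go from 0.976% to 24.7%.

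The secreted matricellular genes CCN1 and CCN2 differed in where their shared peaks lay. CCN2 had 2 shared peaks, both with their midpoint upstream of the gene. The first spanned the start and so reached into the gene (131951270 to 131952274, 1005 bp, fold 3.68, −log10 q 3.66), and the second was centred 3.2 kb from it (131954390 to 131954749, 360 bp, fold 3.39, −log10 q 2.83). At the start, the replicate 1 peak had a fold of 3.85 and a −log10 q of 2.24, and the replicate 2 peak a fold of 4.04 and a −log10 q of 2.25. The upstream peak had a −log10 q of 1.76 in replicate 1 and 1.69 in replicate 2. CCN2 thus had 2 peaks in each of the 3 lists, which overlapped between the lists at both places. The peaks at the start differed in width, with 333 bp in replicate 1 and 103 bp in replicate 2. Those 2 did not overlap by 50% of each, whereas the upstream peaks of the replicates did. CCN1, a secreted integrin ligand like CCN2, had no shared peak at its ends. Its 2 shared peaks lay beyond the higher-coordinate end of the gene on chromosome 1. They were centred 23.5 kb away (85606989 to 85607882, fold 3.94, −log10 q 4.52) and 28.6 kb away (85611553 to 85613591, fold 3.58, −log10 q 3.52). Both were found in each replicate. A further peak, 323 bp from the lower-coordinate end of CCN1 (85580368 to 85580508, fold 3.59, −log10 q 2.22), was listed in replicate 1 and not in replicate 2. The next gene on that side, DDAH1, ends 2.56 kb from CCN1, so this peak lies between a pair of close genes.

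AXL and CRIM1 encode membrane proteins, and their shared peaks all lay within the gene bodies. AXL, a receptor tyrosine kinase that binds GAS6, had 1 shared peak of 3483 bp between its 2 annotated starts (41223008 to 41226490 on chromosome 19, fold 3.18, −log10 q 3.97). Under it each replicate had 2 separate peaks. In replicate 1 these had −log10 q values of 3.02 and 2.17, and in replicate 2 values of 2.12 and 2.45. The broad shared peak spans a pair of narrower ones that recur in each library. CRIM1, a transmembrane protein with cysteine-rich repeats that binds bone morphogenetic proteins, had 3 shared peaks in its 195 kb gene body on chromosome 2. They ran from 36370739 to 36373294, from 36450348 to 36452195 and from 36484750 to 36489743, with folds of 3.46, 3.58 and 3.42 and −log10 q values of 3.19, 3.45 and 3.02. The third of these was 4994 bp wide, the widest shared peak of the 10 genes, and covered 2 replicate 1 peaks and 3 replicate 2 peaks. CRIM1 had 13 replicate 1 peaks, of which 3 overlapped a replicate 2 peak, and 7 replicate 2 peaks. None of its peaks lay within 3 kb of a gene end in any list.

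AMOTL2 and AJUBA encode scaffold proteins that act on the pathway: angiomotin family proteins bind YAP, and AJUBA restrains the LATS kinases at cell junctions. AMOTL2 had 3 shared peaks on chromosome 3, all downstream of the gene and none within it. They were centred 39.6, 28.4 and 24.0 kb from the gene body and lay between 134315135 and 134331880, with −log10 q values of 2.97, 3.42 and 2.47. The next gene on that side, RYK, lies 104 kb from AMOTL2. Replicate 1 had 8 peaks, all of them downstream, with folds from 3.36 to 4.20, and 3 of them overlapped a replicate 2 peak. Replicate 2 had 4 peaks downstream and 1 in the gene body (134358044 to 134358361, −log10 q 1.40). AJUBA had 2 peaks in replicate 1, both in the gene body on chromosome 14. They ran from 22977798 to 22978125 (fold 3.99, −log10 q 2.71) and from 22979869 to 22980892 (fold 3.44, −log10 q 1.8). Replicate 2 and the overlap list had none within 100 kb of AJUBA.

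ASAP1 had the most shared peaks of the target genes, in a long domain, and the 4 of highest −log10 q. It encodes a GTPase-activating protein for Arf proteins that works at focal adhesions and invadopodia. ASAP1 had 8 shared peaks in a domain of 509 kb on chromosome 8, a number reached by 0.12% of all genes, whatever their domain length. Per 100 kb of domain it had 1.57. This was below CCN1 (5.38), AMOTL2 (2.43), AXL (2.05) and ANKRD1 (1.81), and above the other target genes. Of these, 5 lay in the gene body, 2 beyond the higher-coordinate end and 1 beyond the lower-coordinate end. The peak at 130443555 to 130445178 spanned the higher-coordinate end (1624 bp, fold 3.56, −log10 q 4.03). The shared peak of highest −log10 q among the 10 genes was an ASAP1 peak in the gene body (130232366 to 130233620, fold 4.28, −log10 q 6.17). At this place replicate 1 had a fold of 5.70 and a −log10 q of 6.65, which is percentile 98.7 of its list. Replicate 2 had a fold of 4.87 and a −log10 q of 4.01, percentile 91.0 of its list. The shared peak itself lay at percentile 88.9 of the overlap list. Next came a peak 9.81 kb beyond the lower-coordinate end (130042008 to 130042589, −log10 q 5.92), a peak 39.8 kb beyond the higher-coordinate end (130483186 to 130483777, 5.51), and a peak in the body (130266214 to 130266552, 5.42). All 4 shared peaks of the 10 genes with a −log10 q of 5 or more were thus at ASAP1. In the whole overlap list that level was reached by 21.5% of peaks, and by 14.3% of the peaks of these genes.

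RBMS3 was the opposite case, with many shared peaks of low −log10 q. It encodes an RNA-binding protein of the c-Myc single-strand binding family. RBMS3 had 6 shared peaks on chromosome 3, a number reached by 0.255% of genes, in the longest of the 10 domains (929 kb). Their −log10 q values ran from 2.30 to 2.91 and their folds from 3.17 to 3.39. All 6 lay below the first quartile of the overlap list, with q percentiles from 4.24 to 22. Of the 6, 5 were in the gene body, and 1 of these was centred 2.28 kb after the annotated start (29282907 to 29283795, −log10 q 2.30). The sixth lay 94.3 kb upstream (29184611 to 29188859, −log10 q 2.57). There the 2 replicate 1 peaks and the replicate 2 peak did not touch each other, the only such case among the 28 shared peaks. Just outside the 100 kb limit, RBMS3 had a further shared peak at 110 kb (29170948 to 29172091, −log10 q 2.48). Replicate 1 also had a peak that began 36 bases past the window at the start (29281157 to 29281421, −log10 q 1.60), which replicate 2 lacked. Set per 100 kb of domain, RBMS3 had 0.646 shared peaks, the lowest of the 9 genes with a shared peak, ASAP1 had 1.57 and CCN1, with its short domain, 5.38.

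ANKRD1 and GADD45A are inducible genes of short length. Beside the replicate 1 peak at its start (fold 4.01, −log10 q 2.54), ANKRD1 had 2 shared peaks further upstream. They were centred 9.71 kb (90929513 to 90932081, fold 3.61, −log10 q 3.63) and 48.3 kb (90968681 to 90970170, fold 3.43, −log10 q 2.93) from the gene. In replicate 2 the same places had −log10 q values of 2.90 and 2.95, and in replicate 1 values of 2.29 at the nearer and 1.57 and 1.39 at the farther. GADD45A, a stress-response gene also induced by p53, had 1 shared peak of 3106 bp that ran into the lower-coordinate end of the gene (67682374 to 67685479 on chromosome 1, fold 3.36, −log10 q 2.94). Replicate 1 had 2 peaks under it, with −log10 q values of 3.72 and 1.79, and replicate 2 had 1, with 2.84. A replicate 1 peak within the body of GADD45A (67686836 to 67688015, −log10 q 2.54) had no match in replicate 2.

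**Figure D4:**
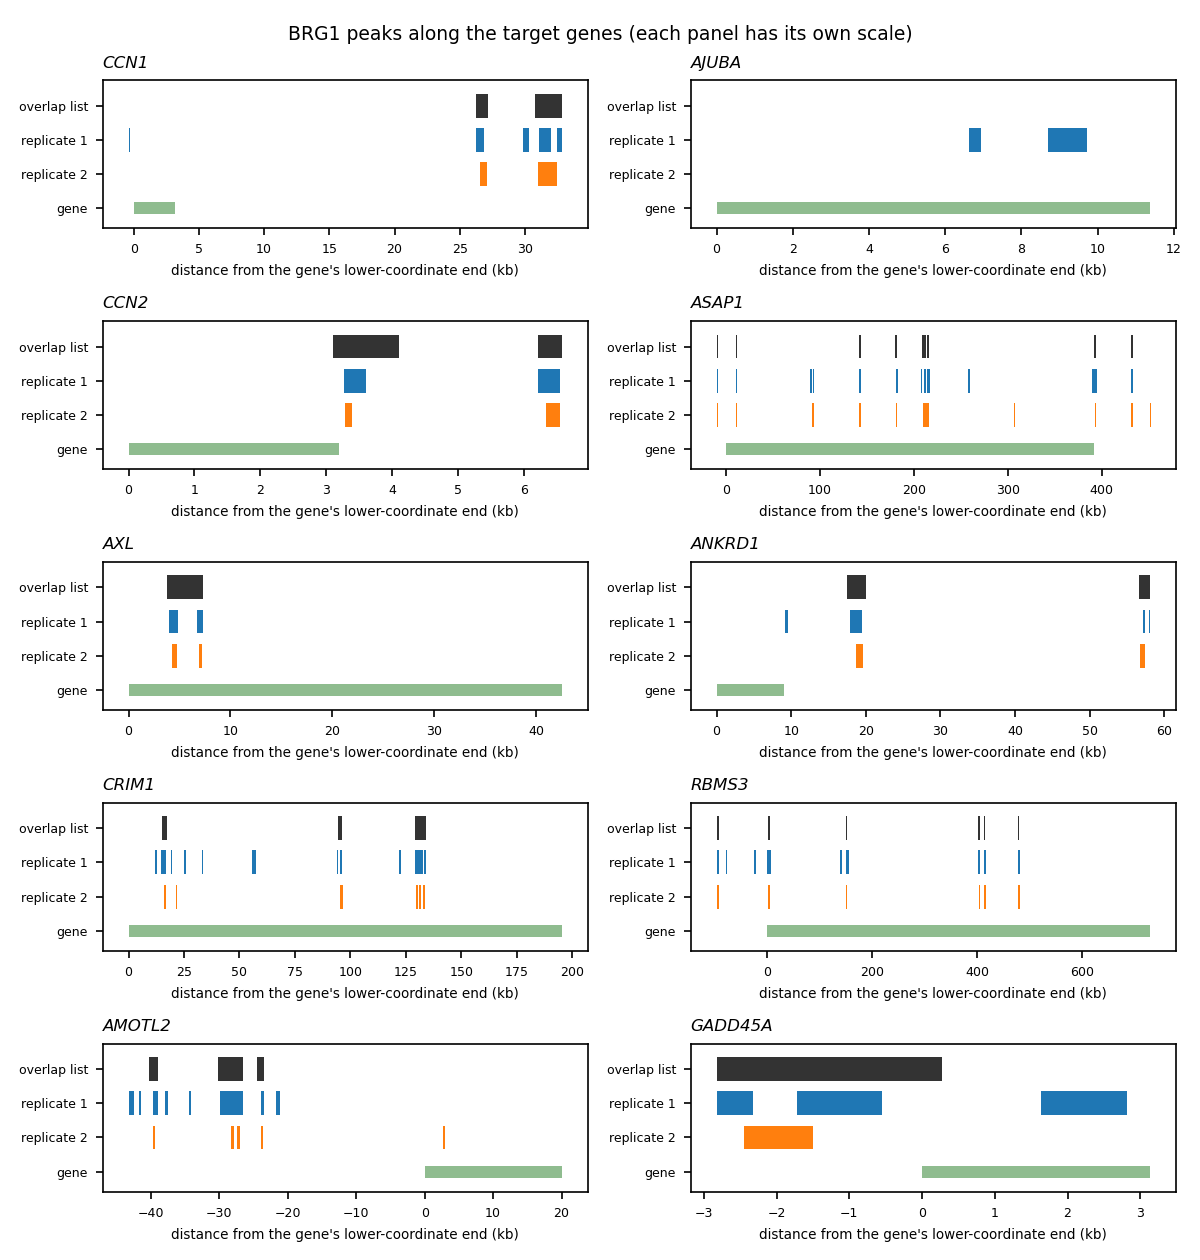
Peaks of the overlap list and of replicates 1 and 2 along each target gene, with the distance from the gene's lower-coordinate end in kb on the horizontal axis. Green bars are gene bodies, each panel has its own scale, and very narrow peaks are drawn at a minimum width. The shared peaks of CCN1, AMOTL2 and ANKRD1 lie well away from the gene, those of AXL and CRIM1 inside it, and those of ASAP1 and RBMS3 along and beside it.

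Across the 10 genes, 14 shared peaks had their midpoint in a gene body and 14 beyond it. The 14 in gene bodies belonged to 4 genes, 1 to AXL, 3 to CRIM1, 5 to ASAP1 and 5 to RBMS3. At the 5 other genes with any shared peak, every midpoint lay outside the gene, although a peak of CCN2 and that of GADD45A reached into it. The bodies of CRIM1, ASAP1 and RBMS3 are long, at 195, 392 and 729 kb. The split over all shared peaks is not given here, so this one cannot be called a trait of the target genes. Within 3 kb of a gene end, 4 of the 10 genes had a shared peak (CCN2, ASAP1, RBMS3 and GADD45A), against 1.79% of all genes. Replicate 1 gave 7 such genes, against 5.86% of all genes, and replicate 2 gave 5, against 2.57%. Windows of 300 bases at annotated starts were given for 6 of the 10 genes. AXL, AMOTL2 and AJUBA had 2 windows each, and CCN2, ANKRD1 and RBMS3 had 1 each. The shares over all windows are per window and not per gene. A shared peak and a replicate 2 peak overlapped the window of CCN2 alone, against 0.642% and 0.601% of all windows. A replicate 1 peak overlapped those of CCN2 and ANKRD1, against 1.34% of all windows. Within 100 kb of the target genes but nearer to another gene lay 5 shared peaks, 16 replicate 1 peaks and 7 replicate 2 peaks. The shared ones were 2 nearer FEZ2 beside CRIM1, and 1 each nearer CCDC97 beside AXL, ANAPC13 beside AMOTL2 and GNG12 beside GADD45A. Of the replicate 1 peaks, 5 lay beside CCN1, 4 of them nearer DDAH1 and 1 nearer ZNHIT6, as many as CCN1 itself was given. A further 3 lay beside AXL, 3 beside GADD45A, 2 beside CRIM1, and 1 each beside CCN2, AMOTL2 and AJUBA.

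The shared peaks of the target genes were of ordinary strength and somewhat wide. Their fold ranged from 3.17 to 4.28 with a median of 3.50, against 3.33 over all shared peaks and 3.47 over the 3244 shared peaks in the domain of any protein-coding gene. Their median −log10 q was 3.44, against 3.70 over all shared peaks and 3.44 over those in any gene domain, and 19 of the 28 lay below the median of the list. Their width ran from 339 to 4994 bp with a median of 1372.5 bp, against 926 and 992 bp. In the replicate lists, the median −log10 q of the target gene peaks was 2.11 in replicate 1 (2.06 over all its peaks) and 2.30 in replicate 2 (2.19 over all its peaks). Their median fold was 3.7 in replicate 1, against 3.53 over all its peaks and 3.63 in any gene domain. In replicate 2 it was 4.0, against 3.71 and 3.85, and near the upper quartile of that list (3.99). A −log10 q of 5 was reached in the replicate lists by the ASAP1 body peak in replicate 1, or 1.45% of the 69 peaks there, against 3.08% of all replicate 1 peaks. In replicate 2 it was reached by 0 of the 41 peaks, against 5.05% of all its peaks.

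**Figure D5:**
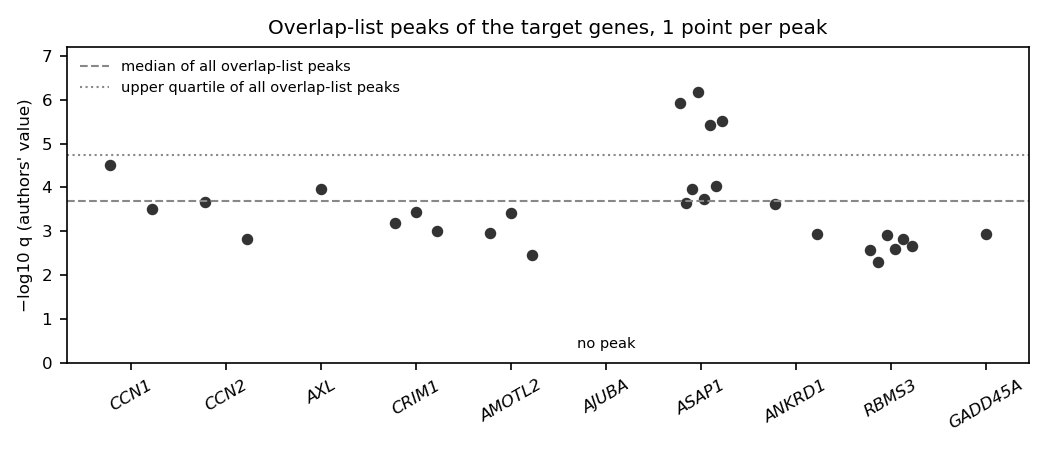
−log10 q of each shared peak, on the vertical axis, for the 10 target genes, with lines at the median (3.70) and upper quartile (4.73) of all overlap-list peaks. ASAP1 has 4 peaks above the upper quartile, all points of CCN2, ANKRD1, CRIM1, AMOTL2, RBMS3 and GADD45A lie below the median, and AJUBA has no peak.

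Agreement between the replicates was uneven. Of the 69 replicate 1 peaks at the target genes, 30 overlapped a replicate 2 peak by at least 1 bp (43.5%, 95% Wilson interval 32.4 to 55.2%). This compares with 36.6% of all replicate 1 peaks and 33.0% of those in any gene domain. Of the 41 replicate 2 peaks, 33 overlapped a replicate 1 peak (80.5%, interval 66.0 to 89.8%), against 63.9% of all replicate 2 peaks and 74.1% of those in any gene domain. With an overlap of at least 50% of each peak, the target gene shares were below those of all peaks. They were 11.6% in replicate 1 (interval 5.99 to 21.2%), against 18.6% of all its peaks. In replicate 2 they were 19.5% (interval 10.2 to 34.0%), against 32.0%. For peaks in any gene domain the shares were 14.4% and 31.6%. Both of these 50% intervals hold the all-peak and the gene-domain share, so these counts do not settle the order. At 1 bp the replicate 1 interval also holds both shares. The replicate 2 interval at 1 bp holds the gene-domain share and lies above the all-peak share. The median width of the target gene peaks was 498 bp in replicate 1, against 355 bp over all its peaks, and 353 bp in replicate 2, against 322 bp. The part of width in these shares was not tested. These intervals treat peaks as independent and cover no error of reads. Yet CRIM1, ASAP1 and RBMS3 held 13, 16 and 14 of the 69 replicate 1 peaks. The genes were also chosen with earlier results known, so the intervals describe these counts and test nothing. Of the 28 shared peaks, 12 covered more than 1 peak of a replicate. When a shared peak and a peak of each replicate had to cover at least 50% of each other, 4 shared peaks met this, the nearer CCN1 peak, the upstream CCN2 peak and 2 at ASAP1. The same counts over all shared peaks are not given here, so neither can be called particular to these genes.

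Other targets of the pathway were counted from a list of 13 further genes of a common YAP/TAZ target signature. Of these, 10 carried a shared peak, with 17 shared peaks in all. Over all genes the share with a shared peak was 9.67%. In each replicate list 12 of the 13 had a peak, against 20.2% of all genes in replicate 1 and 11.5% in replicate 2. MYOF, which encodes a membrane repair protein, had the most, with 4 shared peaks and −log10 q values from 3.10 to 5.26. F3, CCDC80, DOCK5 and TGFB2 had 2 each, and DOCK5 had the only one within 3 kb of a gene end. IGFBP3, FJX1 and ARHGEF17 had no shared peak. Of 17 further genes often used as readouts, 6 of which are also in these lists, 12 had a shared peak. Among 14 genes of the Hippo pathway itself 7 did. The 9.67% over all genes is not matched for domain length in any of these lists. MYOF, DOCK5, TGFB2 and YAP1 lie in the group with the longest domains, where the share was 24.7%. F3, CCDC80 and STK4 lie in the next group, where it was 12.6%. STK4, a kinase of the pathway, had 6, with −log10 q values from 1.99 to 4.38. YAP1 had 5, from 2.35 to 8.64, of which 1 lay within 3 kb of a gene end (102109776 to 102112963 on chromosome 11).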

How the data were processed

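All 3 deposited lists of broad BRG1 peaks from 12Z cells were used, 1 per ChIP replicate and 1 overlap list. The build was GRCh38.p12 and the tools included Bowtie2, MACS2, bedtools, SAMtools, Picard, Trim Galore and cutadapt, per the submitters' processing notes. The sources used here give neither settings nor how the overlap list was made. The deposited fold of each peak is the authors' ratio of signal to background, and the deposited −log10 columns hold the p-value and the q-value. A deposited score that repeats the q-value was not used. The depth of the libraries is unknown.

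Protein-coding genes, starts and sequences came from RefSeq tables of GRCh38.p14, and distances were computed on the chromosomes that both patches share. Strand was known for the 6 target genes with start windows. Peaks were assigned by midpoint with pandas 2.3.3, numpy 2.4.6 and scipy 1.17.1 (Python 3.11.15), figures were drawn with matplotlib 3.10.9, and the assignment was tested on simulated data. There is no second condition, and no test across genes was made. The target genes, the lists and the rule to name genes were chosen with earlier results of these data known. The rule names all 10 target genes, other listed targets with a gene-end peak or the most shared peaks, and up to 3 Hippo genes. Alternatives were each replicate list alone, other domain limits, overlap and q thresholds, and gene-end windows.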

Additional observations from a re-analysis of the deposited data

How the results depend on the processing

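The number of target genes with a peak was 9 in the overlap list, 9 with a −log10 q of 2 or more, within 50 kb, within 1 Mb and by any base of the peak, and 9 to 10 without replicate 1 or without replicate 2. It was 4 in gene bodies alone, 3 when 50% of both peaks had to overlap in each replicate, and 1 with a −log10 q of 5 or more, a setting chosen after seeing the data. The share of all genes at these settings is not given here, so the falls cannot be set against those of any gene. The 28 shared peaks became 41 to 69 without replicate 1 or without replicate 2, 14 in gene bodies, 4 with the 50% overlap and 4 with a −log10 q of 5. The shares of all shared peaks in gene bodies and with the 50% overlap are not given here. The median of 2 per gene became 2 to 4.5 without a replicate, and 0 both in gene bodies and with the 50% overlap. The median fold of 3.50 in the overlap list was 4.09 with the 50% overlap. Within the replicates' own lists, whose folds are not on the scale of the overlap list, it was 3.7 without replicate 2, against 3.53 over all replicate 1 peaks, and 4.0 without replicate 1, against 3.71 over all replicate 2 peaks. Genes with a gene-end peak numbered 4, 2 within 1 kb, 6 within 10 kb, and 5 to 7 without a replicate. For the limits of 1 kb and 10 kb the share of all genes is not given either. The share found in the other replicate was 43.5% for replicate 1 and 80.5% for replicate 2, against 36.6% and 63.9% of all peaks. With an overlap of at least 50% of each peak it was 11.6% and 19.5%, below the 18.6% and 32.0% of all peaks. Both of these all-peak shares lie within the intervals of the target gene peaks. With an overlap of 1 bp, the all-peak share of replicate 2 lay below its interval and the gene-domain share within it. At a −log10 q of at least 2 the share found was 59.5% and 92.6%, against 50.5% and 73.2% of all such peaks. For all of these changes, the cause was not tested. No paired analysis was possible because the input has no peak list and no groups were compared. Depth is unknown, so a missing peak, as at AJUBA in replicate 2, does not show absence of binding.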
